A study of Saccharomyces cerevisiae with 4 samples.

Results

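The 10 histone genes of budding yeast were examined in cells exposed to b-lapachone, a naphthoquinone that cycles between reduced and oxidised forms inside cells. They were taken by their systematic names from a table of 6211 open reading frames: the 8 core genes HTA1, HTA2, HTB1, HTB2, HHT1, HHT2, HHF1 and HHF2, the variant gene HTZ1 and the linker gene HHO1. All 10 had a value on each of the 4 arrays. Every culture was of the haploid strain BY4741 (MATa, his3Δ1, leu2Δ0, LYS2, met15Δ0, ura3Δ0), grown in YPD at 28 °C to an absorbance of 0.6 and then given 10 µg/ml b-lapachone in DMSO, or 1% DMSO as vehicle, for 1 h. Each array hybridised RNA of a treated culture together with RNA of a vehicle culture, so the 4 arrays form 1 group of 4 biological replicates. Dyes were swapped: the treated channel was Cy3 for replicates 1 and 3, and Cy5 for replicates 2 and 4. The cultures were log-phase populations of 1 strain, and a ratio between channels gives no level of any transcript in either culture.

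Histones package DNA into nucleosomes, in which a tetramer of H3 and H4 is flanked by dimers of H2A and H2B. In budding yeast each core histone is encoded by a pair of genes, and the core genes lie as divergent couples that share 1 intergenic promoter region: an H2A gene beside an H2B gene, or an H3 gene beside an H4 gene. Their transcription is largely restricted to S phase, is repressed outside it by the HIR complex at all couples but HTA2-HTB2, and falls when replication is blocked. HTZ1 encodes H2A.Z, which the SWR1 complex exchanges for H2A near promoters, and HHO1 encodes the linker histone H1.

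No histone gene passed the test for a change after 1 h with b-lapachone. The deposited values were read as log2 ratios of b-lapachone over vehicle. That direction and the base of the logarithm are likely rather than stated, and the opposite direction would turn every sign given here. The count was 0 of 10 (limma mean ratio against 0, Benjamini-Hochberg adjustment over 5112 genes, threshold 0.05). Among all genes tested 3.03% passed, 2.07% higher and 0.959% lower. At an unadjusted p below the same threshold 1 histone gene stood, HTA2, on the lower side, where 18.8% of all genes did in either direction and 8.63% on the lower side. The adjusted p-values of the 10 genes ran from 0.212 to 0.977 (limma).

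The 95% intervals bounded the mean deposited ratio of each gene. Effects of background or of binding between gene copies on the ratios were not tested and are not covered by them. The lowest bound of any histone gene was a log2 ratio of -0.52, a 1.43-fold fall, and the highest was 0.22, a 1.16-fold rise. A 2-fold change in either direction lay outside the intervals of all 10 histone genes, as it did for 99.1% of genes tested. Standard errors of the means ran from 0.10 to 0.13, against a median of 0.11 over all genes, and the smallest mean called in any gene had a size of 0.40. The number of arrays limits the precision.

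**Figure D1:**
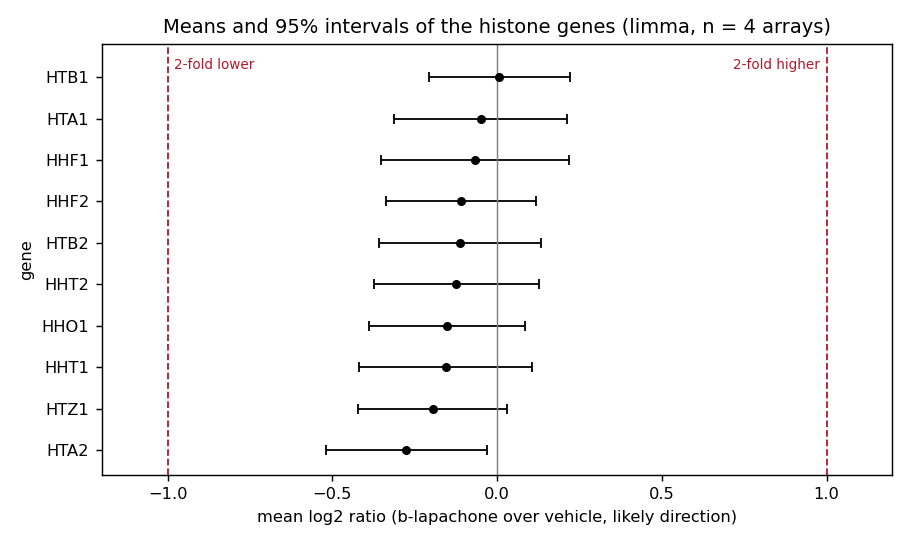
Mean log2 ratio of each histone gene (point, n = 4 arrays) with its 95% interval from limma (bar), genes ordered by mean, with dashed lines at a 2-fold change. Every interval except that of HTA2 crosses 0, and all 10 lie between -0.52 and 0.22.

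The means were small and mostly below 0. Of the 10, 9 had a mean below 0, where 53.2% of all genes tested did, and 8 were below 0 on at least 3 arrays, where 38.7% of genes with 4 values were. The median of the 10 means was -0.12, beside -0.01 over all genes tested. On single arrays the median of the histone genes was 0.10, -0.15, -0.28 and -0.13 on replicates 1 to 4, so replicate 1 lay on the other side of 0 from the rest. As none of the 10 genes passed, a fall in histone mRNA is not established here. Were there one, fewer cells in S phase and less histone mRNA per cell could not be told apart in these bulk cultures.

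Of the genes for H2A, which pairs with H2B in the nucleosome, HTA2 (YBL003C) had the lowest mean of all 10. Its log2 ratios were 0.06, -0.32, -0.52 and -0.33 on replicates 1 to 4, with a mean of -0.28 ± 0.24 (SD, n = 4). Replicates 2, 3 and 4 were clearly below 0 and replicate 1 lay just above it. The mean corresponded to a 1.21-fold fall, with a 95% interval of the log2 ratio from -0.52 to -0.03, and did not pass the adjusted test (limma, adjusted p = 0.212). It ranked at the 6.18th percentile of the means of all genes tested. Without replicate 1 the mean was -0.39 and the adjusted p 0.0666 (limma). Over the 12 alternatives that kept the signs as deposited, the adjusted p ran from 0.0666 to 0.618. With the signs of replicates 1 and 3 turned it was 0.991.

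HTA1 (YDR225W), the other H2A gene, was at 0.10, -0.49, 0.16 and 0.03 on replicates 1 to 4. A single array, replicate 2, lay below 0 and took the mean to -0.05 ± 0.30 (SD, n = 4; limma, adjusted p = 0.856). Without replicate 2 the mean was 0.10, so its sign rested on that array.

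Of the H2B genes, HTB1 (YDR224C) was the steadiest of the 10, at 0.10, -0.13, 0.04 and 0.01 on replicates 1 to 4. Its mean was 0.0066 ± 0.096 (SD, n = 4; limma, adjusted p = 0.977), with an interval from -0.21 to 0.22. It was the 1 histone gene with a mean above 0, and that sign turned with quantile-normalized arrays (-0.0048) and without replicate 1 (-0.025) or replicate 3 (-0.0037). HTB2 (YBL002W) was at 0.19, -0.02, -0.28 and -0.34, with a mean of -0.11 ± 0.25 (SD, n = 4; limma, adjusted p = 0.633). It lay above 0 on replicate 1 and furthest below on replicates 3 and 4, and its mean ran from -0.21 without replicate 1 to -0.036 without replicate 4.

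Both genes for H3, a member of the central tetramer, had a single array above 0. HHT1 (YBR010W) was at 0.12, -0.01, -0.56 and -0.18 on replicates 1 to 4, with a mean of -0.16 ± 0.29 (SD, n = 4; limma, adjusted p = 0.511). Its value on replicate 3 was the lowest of any histone gene on any array, and the mean was -0.023 without replicate 3 and -0.25 without replicate 1. HHT2 (YNL031C) was at 0.26, -0.22, -0.29 and -0.26, with a mean of -0.12 ± 0.26 (SD, n = 4; limma, adjusted p = 0.599). Its replicates 2, 3 and 4 lay close together, with a mean of -0.25 and with replicate 1 apart from them.

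Of the genes for H4, the partner of H3, HHF1 (YBR009C) varied most among the 10. It was at 0.46, -0.18, -0.37 and -0.18 on replicates 1 to 4, with a mean of -0.07 ± 0.36 (SD, n = 4; limma, adjusted p = 0.815), and its spread exceeded that of 90.1% of genes tested. Replicate 1 carried the highest value of any histone gene on any array, and without replicate 3 the mean turned to 0.03. HHF2 (YNL030W) did not share that pattern. It was at -0.24, 0.13, -0.24 and -0.09, so replicate 2 alone lay above 0, and its mean was -0.11 ± 0.17 (SD, n = 4; limma, adjusted p = 0.615).

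HTZ1 (YOL012C), the H2A.Z gene, was the 1 member below 0 on all 4 arrays, as were 13.7% of genes with 4 values. Its log2 ratios were -0.15, -0.41, -0.22 and -0.01 on replicates 1 to 4, with a mean of -0.20 ± 0.16 (SD, n = 4), or a 1.15-fold fall that did not pass (limma, adjusted p = 0.326). HHO1 (YPL127C), the linker histone gene, was at -0.37, -0.02, -0.30 and 0.07, with a mean of -0.15 ± 0.21 (SD, n = 4; limma, adjusted p = 0.473). It was lowest on replicates 1 and 3, the arrays with treated RNA in Cy3, at a mean of -0.33 against 0.03 on replicates 2 and 4.

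**Figure D2:**
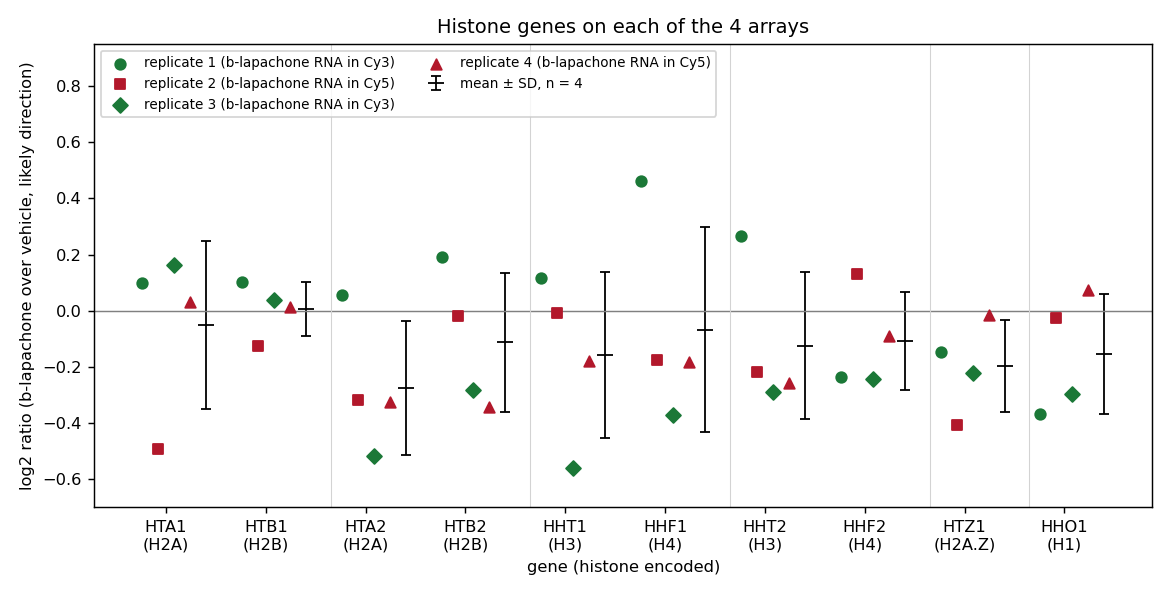
Log2 ratio (b-lapachone over vehicle, likely direction) of each histone gene on each of the 4 arrays, green where Cy3 and red where Cy5 marked treated RNA, with the mean ± SD (n = 4) in black. The circles of replicate 1 lie above 0 for 7 genes, while HTZ1 is below 0 on all arrays and HTB1 stays within 0.13 of it.

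In order of their means from the lowest, the genes ran HTA2, HTZ1, HHT1, HHO1, HHT2, HTB2, HHF2, HHF1, HTA1 and HTB1. Neighbours in that order differed by at most 0.08 on the log2 scale, less than the SD of either neighbour in each case. Differences between genes are given as values with no test. A two-sided exact sign-flip permutation test over 4 arrays cannot go below p = 0.125. Leaving out 1 array at a time, the means ran from -0.25 to -0.070 for HHT2, -0.19 to -0.064 for HHF2, -0.26 to -0.13 for HTZ1 and -0.23 to -0.082 for HHO1.

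The arrays divided the genes by sign in a way that their means do not show. HTA2, HTB2, HHT1, HHF1 and HHT2, 5 of the 10, were above 0 on replicate 1 and below 0 on the other 3 arrays, a pattern found in 7.21% of genes with 4 values. This pattern was noticed in the values themselves and carries no test. HTA1 and HTB1 were below 0 on replicate 2 alone, as were 8.22% of genes. On replicates 1 to 4 respectively 3, 9, 8 and 7 of the 10 histone genes were below 0. Replicate 1 had the widest spread of all genes, with an SD of 0.38 against 0.27 to 0.31 on the others, and its part in the pattern was not tested.

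Grouped by divergent couple, HTA1-HTB1 was the lowest couple on replicate 2 and the highest on replicates 3 and 4. The mean of its 2 genes was 0.10, -0.31, 0.10 and 0.02 on replicates 1 to 4. HTA2-HTB2, which carries the same histones, was at 0.12, -0.17, -0.40 and -0.33. The difference between these couples was 0.50 and 0.36 on replicates 3 and 4 but -0.02 and -0.14 on replicates 1 and 2, with a mean of 0.17 ± 0.30 (SD, n = 4). HTA1-HTB1 thus lay above HTA2-HTB2 on 2 of 4 arrays, and the mean difference was smaller than its spread. HTA1-HTB1 minus the mean of the other 3 couples was -0.04, -0.21, 0.48 and 0.25 on replicates 1 to 4, and its mean ran from 0.00014 without replicate 3 to 0.23 without replicate 2.

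Of the couples of H3 and H4 genes, HHT1-HHF1 was at 0.29, -0.09, -0.47 and -0.18 on replicates 1 to 4, and HHT2-HHF2 at 0.01, -0.04, -0.27 and -0.17. Their mean difference was 0.0045 ± 0.20 (SD, n = 4), with HHT1-HHF1 the higher on replicate 1 and the lower on the others. Set by class, the 4 genes for H2A and H2B had a mean of -0.11 and the 4 for H3 and H4 also -0.11. The difference between the classes was -0.04, -0.17, 0.22 and 0.02 on replicates 1 to 4 (mean 0.0067 ± 0.16, SD, n = 4), so neither class lay below the other on every array.

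**Figure D3:**
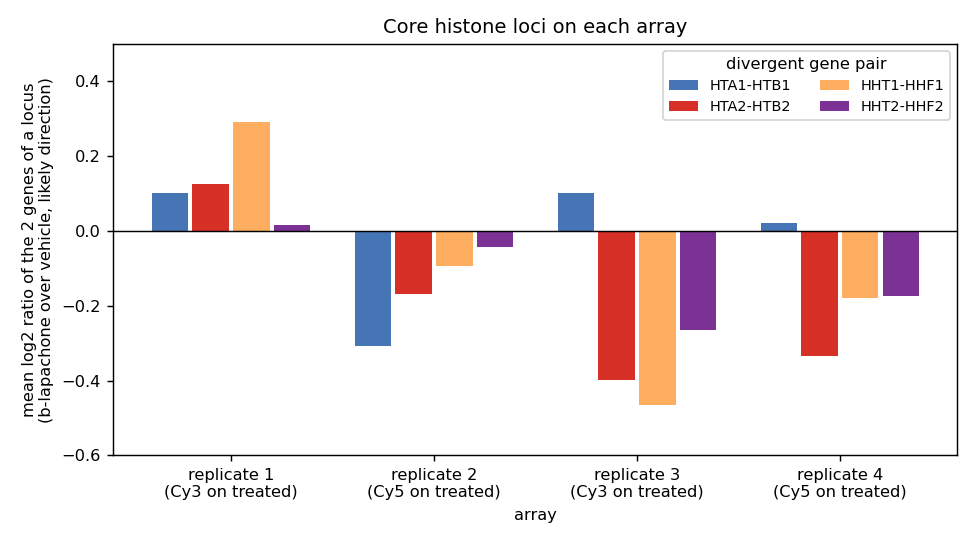
Mean log2 ratio of the 2 genes of each divergent couple on each array (bars from 0; no error bar, since each bar is a mean of 2 genes on 1 array). HTA1-HTB1 is at 0.10 and 0.02 on replicates 3 and 4, where the other couples lie between -0.47 and -0.17, and it is the lowest couple on replicate 2.

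Genes that share a promoter region were compared within each couple. HTA1 minus HTB1 was -0.0037, -0.37, 0.13 and 0.02 on replicates 1 to 4 (mean -0.06 ± 0.21, SD, n = 4). HTA2 minus HTB2 was -0.14, -0.30, -0.24 and 0.02 (mean -0.16 ± 0.14), the H2A gene lying lower on 3 arrays. HHT1 minus HHF1 was -0.34, 0.17, -0.19 and 0.01 (mean -0.09 ± 0.22). HHT2 minus HHF2 was 0.50, -0.35, -0.05 and -0.17 (mean -0.02 ± 0.37). No couple had 1 gene above the other on all 4 arrays, and in 3 of the couples the mean difference was smaller than its SD.

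The 2 gene copies of a histone are closely related, and binding of 1 copy's RNA to the other's probe was not tested, as no probe or gene sequence was used here. Their separate values may therefore be uncertain. The copies differed on single arrays. HTA1 minus HTA2 was 0.04, -0.17, 0.68 and 0.35 on replicates 1 to 4 (mean 0.23 ± 0.37, SD, n = 4), and HTB1 minus HTB2 was -0.09, -0.11, 0.32 and 0.36 (mean 0.12 ± 0.25). HHT1 minus HHT2 stayed between -0.27 and 0.21 (mean -0.03 ± 0.22). HHF1 minus HHF2 was 0.70 on replicate 1 and -0.31, -0.13 and -0.09 on the others (mean 0.04 ± 0.45). Each mean difference was smaller than its spread over arrays. Without replicate 3 the mean of HTA1 minus HTA2 was 0.074, and without replicate 4 that of HTB1 minus HTB2 was 0.040.

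A dye effect was estimated as the difference between arrays with Cy5 and arrays with Cy3 on treated RNA. None of the 10 genes passed (0 by limma, Benjamini-Hochberg adjusted, also 0 at an unadjusted p under the threshold), where 0.0391% of all genes passed and 9.76% did so unadjusted. The estimates were largest for HTA1, at -0.36, and HHO1, at 0.36 (limma, adjusted p = 0.602 and 0.550). Their intervals were wide, from -0.84 to 0.11 and from -0.05 to 0.77, so dye effects of this size could not be resolved with 2 arrays of each orientation. HTA1 was at a mean of 0.13 with Cy3 and -0.23 with Cy5 on treated RNA. With the signs of replicates 1 and 3 turned, as a table of fixed Cy5 over Cy3 ratios would require, 0 histone genes passed (limma). Unadjusted, the count was also 0. Of all 5112 genes 1 passed then, against 155 with the signs as deposited. As deposited, arrays of opposite dye orientation correlated at 0.097 to 0.44, and turning the signs makes those correlations negative. Since that reading left hardly any gene called, no conclusion is drawn from the 0 for histone genes. Calls of single genes given below as lost with turned signs are to be read beside that count.

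The proteins that control histone transcription showed no called change at the level of their own mRNA. Of 12 genes listed as regulators, 11 were tested and none passed (0 by limma, also 0 at an unadjusted p under the threshold), with 7 means below 0, 4 above and a median of -0.08. Over all genes tested 3.03% passed, 18.8% did so unadjusted and 53.2% had a mean below 0. HPC2 (YBR215W), a subunit of the HIR repressor complex, had the largest size, at -0.23 ± 0.44 (SD, n = 4; limma, adjusted p = 0.411). Its value was -0.88 on replicate 1 and between -0.05 and 0.02 on the others, so 1 array made the mean. The other HIR subunits HIR1, HIR2 and HIR3 had means of 0.04, -0.04 and -0.08, and SPT10, an activator that binds histone promoters, was at 0.13 ± 0.26, all named after their values were seen. SPT21, another activator of histone genes, had no value on any array.

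Factors that handle histone proteins did not pass either, where 3.03% of all genes passed and 18.8% did so unadjusted. None of 12 histone chaperones and assembly factors passed (0 by limma, 1 at an unadjusted p under the threshold; median -0.06), and the largest in size was POB3 (YML069W), a subunit of the FACT complex, at -0.29 ± 0.24 (SD, n = 4; limma, adjusted p = 0.195). Among genes of the SWR1 complex, which deposits H2A.Z, 0 of 11 tested passed (limma; 2 unadjusted; median -0.04). VPS71 (YML041C), a subunit of that complex, was largest at -0.33 ± 0.45 (SD, n = 4; limma, adjusted p = 0.252), with -0.91 on replicate 1 and 0.18 on replicate 4. SWR1 itself, the catalytic subunit, had a value on 1 array and was not tested. CSE4, the gene of the centromeric H3 variant, was at -0.11 and -0.54 on the 2 arrays that measured it, replicates 1 and 2, and was not tested.

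Of the enzymes that modify histones, 1 of the genes tested rose, beside 2.07% of all genes. Unadjusted, 18.8% of all genes passed in either direction. None of 15 acetyltransferases and deacetylases tested passed (0 by limma, 1 unadjusted; median -0.07), with HAT2 (YEL056W), a subunit of the Hat1 acetyltransferase, largest at -0.23 ± 0.12 (SD, n = 4; limma, adjusted p = 0.241). Among 9 tested genes of histone methylation and ubiquitination, with a median of -0.06, UBP10 (YNL186W), a deubiquitinase of H2B, rose by 0.40 ± 0.07 (SD, n = 4; limma, adjusted p = 0.0483). It was at 0.49, 0.32, 0.43 and 0.36 on replicates 1 to 4, above 0 on each. When each array was left out in turn its mean stayed between 0.37 and 0.42, in fits with 1 array fewer. The adjusted p then ran from 0.0693 to 0.290 (limma), so the call was lost in every such case. It was also lost with values on at least 2 arrays (adjusted p = 0.0598) and with the signs of replicates 1 and 3 turned, where the mean was -0.060. Of 5 factors of histone mRNA decay none passed (0 by limma, 0 unadjusted), with a median of 0.08 and RRP6 (YOR001W), a nuclear exosome exonuclease, largest at 0.09 ± 0.21 (SD, n = 4; limma, adjusted p = 0.702).

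Since histone transcripts follow the cell cycle, lists of phase markers were set beside them. Over all genes 3.03% were called, 8.63% were lower at an unadjusted p under 0.05 and 53.2% had a mean below 0. Of 13 G1/S genes tested 1 rose and none fell (2 lower unadjusted), with 9 means below 0 and a median of -0.09 (from -0.10 to -0.05 on single arrays). The gene that rose was SWE1 (YJL187C), the kinase that restrains Cdc28 at mitotic entry, at 0.51 ± 0.05 (SD, n = 4; limma, adjusted p = 0.0146). Its call was lost without replicate 3 (mean 0.53; limma, adjusted p = 0.123), without replicate 4 (mean 0.51, adjusted p = 0.0767) and with turned signs (0.991). Of all genes 27 were called without replicate 3 and 67 without replicate 4, against 155 with all arrays. Calls lost in those fits are to be read beside these counts. Of 10 G2/M genes 1 fell, the mitotic cyclin gene CLB1 (YGR108W), to -0.41 ± 0.14 (SD, n = 4; limma, adjusted p = 0.0483), with 2 genes lower unadjusted, 9 of 10 means below 0 and a median of -0.12 (from -0.26 to -0.08 on single arrays). CLB1 was no longer called without replicate 2 (adjusted p = 0.0967), replicate 3 (0.336) or replicate 4 (0.123), nor with centred arrays (0.0557), values on at least 2 arrays (0.0598) or turned signs (0.993). Of 8 M/G1 genes tested 1 fell, PCL9 (YDL179W), a cyclin of the Pho85 kinase, to -0.45 ± 0.12 (SD, n = 4; limma, adjusted p = 0.0323), with 3 genes lower unadjusted, 7 of 8 means below 0 and a median of -0.20. The M/G1 median was -0.31, -0.16, 0.11 and -0.45 on replicates 1 to 4, so replicate 3 lay on the other side of 0. PCL9 was no longer called when any single array was left out (adjusted p from 0.0524 to 0.253) or signs were turned (0.991). The part of cell cycle position in the histone values was not tested.

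**Figure D4:**
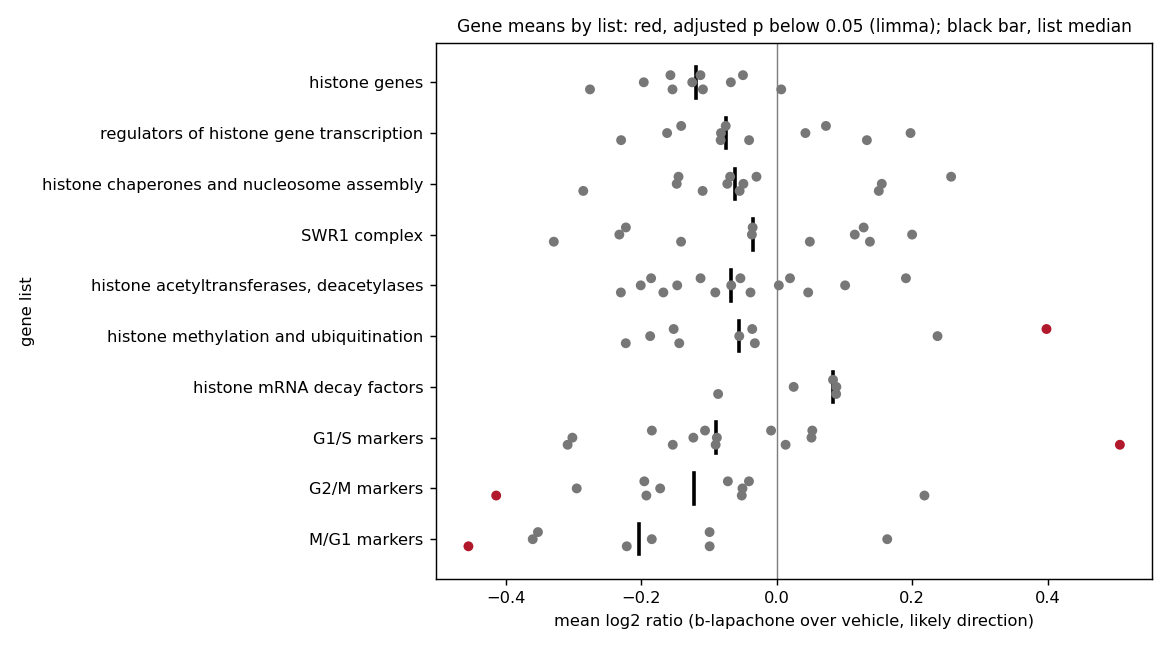
Mean log2 ratio of each tested gene in the histone set and in 9 gene lists (points, red where limma's adjusted p was below 0.05), with each list's median as a black bar. The histone points run from -0.28 to 0.0066 around a median of -0.12, and the red points are UBP10, SWE1, CLB1 and PCL9.

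Genes on either side of the histone loci, by their order in the R64 gene table, were mostly as flat as the histones. Of 12 flanking genes 11 were tested and 1 was called, where 3.03% of all genes tested were. It was FLR1 (YBR008C), a drug transporter of the major facilitator family that lies beside HHF1. FLR1 rose by 0.75 ± 0.32 (SD, n = 4; limma, adjusted p = 0.0065), with 1.22, 0.62, 0.64 and 0.53 on replicates 1 to 4, where HHF1 was at 0.46, -0.18, -0.37 and -0.18. FLR1 and HHF1 were both highest on replicate 1, as were the flanking genes ECM15, IPP1 and NAN1. The same held for the histone genes HTA2, HTB1, HTB2, HHT1 and HHT2. The call of FLR1 was lost without replicate 3 (limma, adjusted p = 0.0854) and with turned signs (0.991). Without replicate 3 the genes called numbered 27 of all tested, against 155 with all arrays. The means of the other flanking genes tested ran from -0.17 for TBF1 (n = 3), a telomere-binding regulator beside HHO1, to 0.21 for UTP20, a ribosome biogenesis factor beside HTA2. The others were ADK1 beside HTA1, ECM15 beside HTB2, IPP1 beside HHT1, SIW14 beside HHT2, KTR5 beside HHF2, HRD1 and PLB3 on either side of HTZ1 and NAN1 beside HHO1. CRF1, beside HTB1, had values on 2 arrays and was not tested.

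The mean of the 8 core genes was 0.13, -0.15, -0.26 and -0.17 on replicates 1 to 4. Of 4564 other genes with 4 values, the 5 nearest to it by root mean square difference over the 4 arrays were URH1 (0.022), a uridine nucleosidase, EXO5 (0.030), a mitochondrial exonuclease, VTC4 (0.044), a polyphosphate polymerase subunit, SSA4 (0.045), an Hsp70 chaperone, and MRPS18 (0.048), a mitochondrial ribosomal protein. None of these 5 was called (0 by limma, 0 unadjusted). Their choice by nearness to a small mean largely fixed that outcome, as the smallest mean called in any gene had a size of 0.40. Each core gene was set against the mean of the other 7 core genes, so that it did not enter the mean itself. That distance was smallest for HHT2, at 0.10, with 2.02% of the 4564 other genes nearer to the same mean, and largest for HTA1, at 0.33, with 58.3% nearer. For HTZ1 and HHO1, set against all 8 core genes, 22.1% and 49.0% of the other genes were nearer.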

How the data were processed

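Total RNA of treated and vehicle cultures was isolated by acid-phenol extraction and indirectly labelled, per the labels' protocols. The authors deposited 1 value per open reading frame and array, read here as a log2 ratio between channels. Neither image analysis, background correction, normalization, log base nor direction is given in the sources used here. Column medians lay between -0.02 and 0.0029. Arrays of opposite dye orientation correlated at 0.097 to 0.44, and those of the same orientation at 0.48 (replicates 1 and 3) and 0.39 (replicates 2 and 4). Arrays had values for 4819 to 5534 of 6211 frames, of which 5638 matched a locus tag of the R64 gene table. No signal or background values were used, so dim spots could not be told from others. The mean of each gene with at least 3 values (5112 genes) was tested against 0 with limma 3.58.1 (R 4.3.3; lmFit, eBayes, two-sided, Benjamini-Hochberg over all genes, threshold 0.05), which was also checked on simulated data. A second fit added a dye coefficient. Errors are SDs over arrays, and intervals are limma's at 95%. The members and lists were chosen with earlier results of these data known. Named were the 10 members, CSE4, called genes of each list or else the largest in size, flanking genes, and the 5 genes nearest in pattern. The 13 alternatives varied dye, signs, normalization, filter, variance prior, weights and replicates.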

Additional observations from a re-analysis of the deposited data

Results flagged for a closer look

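Within each group of 4 values, 1 array stood far from the other 3 (Dixon's ratio above its 95% critical value) in 6 of 72 sets examined. Chance flags about 1 in 20 independent groups, but these sets overlap, and several genes were named for the size or shape of their values, so the count is not set against that rate. HHT2 was at 0.26 on replicate 1, against a mean of -0.25 over the others. HPC2 was at -0.88 on replicate 1, against -0.01 over the others. FLR1 was at 1.22 on replicate 1, against 0.60. VTC4 and SSA4, 2 of the genes nearest in pattern to the core histone mean, were at 0.20 and 0.094 on replicate 1, against -0.22 and -0.19. RRP6 was at -0.22 on replicate 3, against 0.19.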

How the results depend on the processing

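No histone gene was called under any of the 13 alternatives (0 of 130 results by limma, lowest adjusted p 0.0666, for HTA2 without replicate 1). In that fit 3 histone genes were below 0.05 unadjusted. The share of all genes below it there is not given here, and was 18.8% with all arrays. That fit also leaves out the array on which most histone genes lay above 0, so the 3 are not read as a result. Apart from turned signs, the median of the histone means stayed between -0.21 and -0.07 over 12 alternatives. With the signs of replicates 1 and 3 turned, means of HTB1, HHT1, HHF2 and HHO1 changed sign, to -0.063, 0.064, 0.13 and 0.18, HTA2 minus HTB2 became 0.023, HHT1 minus HHF1 became 0.18, 1 gene was called of all tested, and the calls in the lists of histone methylation and ubiquitination, G1/S, G2/M and M/G1 fell to 0. HTB1 was at -0.0048 with quantile-normalized arrays. Leaving out 1 array at a time, means ranged from -0.12 to 0.10 for HTA1, -0.025 to 0.051 for HTB1 and -0.24 to 0.034 for HHF1, and uncalled dye effects from -0.38 to 0.20 for HTA2, -0.37 to 0.10 for HTB2, -0.21 to 0.47 for HHT1, -0.64 to 0.19 for HHF1, -0.50 to 0.050 for HHT2 and -0.22 to 0.17 for HTZ1. All genes called then numbered 27 (without replicate 3) to 179, against 155, and 67 without replicate 4; array weights gave 274. Calls in the lists ranged from 0 to 2 for G1/S, 0 to 1 for G2/M, and were 0 for M/G1 and for methylation and ubiquitination. With values on at least 2 arrays the methylation and ubiquitination list and the G2/M list had 0 calls, and with centred arrays the G2/M list had 0. The causes were not tested. Each ratio already pairs a treated with a vehicle culture, and with 1 group of arrays there was no further pairing to fit.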
